A study of Homo sapiens with 9 samples.

Results

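Cells labelled NB4 were cultured for 48 h with FB23-2 or with DMSO as the control, and the transcripts of these 2 groups were compared gene by gene and then process by process. The comparison takes 6 of the 9 libraries of the series by their labels alone, DMSO replicates 1 to 3 and FB23-2 replicates 1 to 3. The 3 remaining libraries, from cells given the compound FB23 for the same time, entered the estimate of the spread and a direct comparison of both compounds. NB4 is a line from an acute promyelocytic leukaemia, whereas the labels give the cell type as acute monocytic leukaemia. The labels describe both compounds as inhibition of FTO and give no dose, and they do not say whether replicates are separate cultures, so p-values measure only the spread between these libraries, which may be technical.

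FTO is a dioxygenase that erases N6-methyladenosine (m6A), a mark on messenger RNA that is written by a METTL3 complex and read by YTH and IGF2BP proteins. The mark affects how long a transcript lasts and how well it is translated, and FTO has been studied as a driver in some acute myeloid leukaemias. Growing leukaemia cells devote much of their transcription to ribosomes, mitochondria and cell division, a programme in which MYC is a central transcription factor. When blood precursors stop dividing or mature, CDK inhibitors usually rise and lineage genes shift.

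The label was set against marker genes of several lineages. Of 7 promyelocyte and granule markers, MPO, ELANE and CTSG had 0 counts in all 6 libraries, and the summed level of the list was 46.4 ± 0.788 TPM (transcript abundance corrected for length and library total, mean ± SD, n = 3) in DMSO and 47.2 ± 1.46 with FB23-2, nearly all of it from CD33, a general myeloid surface gene. All 9 erythroid markers were expressed in DMSO, at a summed 21380.0 ± 575 TPM, and all 9 fell with FB23-2, to 2966 ± 153 TPM. Monocyte and macrophage markers summed to 14.5 ± 0.491 TPM in DMSO and 51.1 ± 3.93 with FB23-2, with 5 of 8 testable, 4 higher and 1 lower, and CD14 stood at 0.37 and 0.283 TPM. Dendritic markers went from 3.65 ± 0.482 to 32.9 ± 0.271 TPM (3 of 8 testable, all higher). Some of these monocyte and dendritic markers may have been testable only because FB23-2 raised them. Of 3 monocyte and macrophage markers with at least 10 counts in every DMSO library, 2 were higher and 1 lower. The 2 dendritic markers with such counts were higher. Epithelial markers summed to 678 ± 4.48 and 2992 ± 96.5 TPM and those of T, B and NK cells to 1.11 ± 0.257 and 2.27 ± 1.08 TPM. The promyelocyte granule markers that define NB4 were thus absent or near 0, and the cells are called by their label only.

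Expected counts summed to between 16804604 and 18514243 per DMSO library and between 15207132 and 24595521 per FB23-2 library. The files list 26830 genes, of which 13365 passed the count filter and were tested. The FB23-2 libraries held more genes at 1 TPM or above, 12417 to 12538 against 11555 to 11630 in DMSO. At the same time fewer genes made up 50% of all TPM, 132 to 151 against 177 to 184. None of the FB23-2 libraries overlapped a DMSO library in either measure. As described below, TPM lies above the fitted changes by a median of 0.25 on the log2 scale. How much this adds to the genes at 1 TPM or above with FB23-2 was not tested.

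FB23-2 changed most of the measured transcriptome: genes of ribosome production, mitochondria, protein folding, nucleotide synthesis and mitosis were lower, as were globins and other red cell genes. Histone, sterol and hypoxia genes, those of lysosomal hydrolases and membrane proteins, and immediate-early genes were mostly higher. At an adjusted p under 0.05 (edgeR quasi-likelihood test, Benjamini-Hochberg over 13365 genes), 11041 genes were called, which is 82.6% of those tested. Of them 5523 were higher (41.3%) and 5518 lower (41.3%), and 2767 rose (20.7%) and 2146 fell (16.1%) by at least 1 on the log2 scale. The even split depends on the TMM scaling, and upper-quartile factors gave 6451 higher and 4642 lower. Counts scaled to the library size (CPM, with TMM factors) did not overlap between the groups for 11260 genes, or 84.2%. With so many calls, a list of genes stands out only by the share that moved 1 way and by its median, which for all tested genes was 0.01 on the log2 scale. In RNA from a bulk culture, fewer cells of a type and less RNA per cell cannot be told apart.

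**Figure D1:**
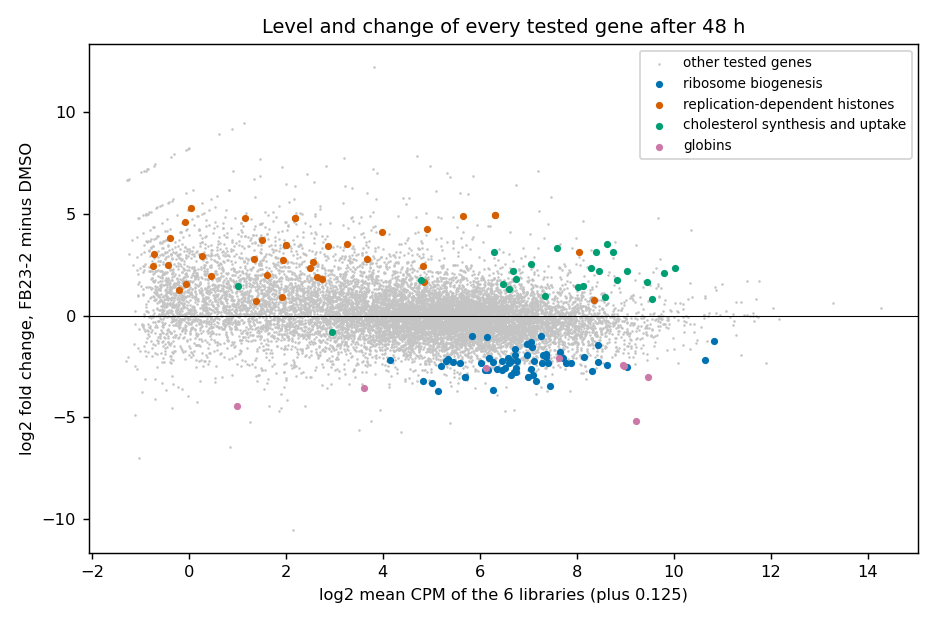
Each point is 1 of the 13365 tested genes, with the log2 of its mean CPM over the 6 libraries (a small constant added) on the x axis and its log2 fold change, FB23-2 minus DMSO, on the y axis. Ribosome biogenesis genes and globins, coloured, lie below 0, and replication-dependent histone genes lie above 0, as do the cholesterol genes apart from PMVK.

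Level and length went along with the direction. Tested genes were split into 5 equal classes by mean TPM and again by length. In the class with the highest mean TPM, the median log2 fold change was -0.48, with 65.1% lower and 25.5% higher. In the lowest class it was 0.75, with 17.1% lower and 54.0% higher. Genes near the detection limit could in part be tested only because FB23-2 raised them, which may add rises to this lowest class. The classes were not repeated for genes with at least 10 counts in every DMSO library. How much of the rise came from the filter was thus not tested. Over all genes with such counts, the median was -0.08, with 38.0% higher and 45.0% lower. The class of the shortest genes had a median of -0.24 and that of the longest 0.19. How far level and length enter into the list values that follow was not tested beyond the fit with GC content and length trends removed. TPM as deposited also lies above the fitted changes, by a median of 0.25 on the log2 scale over 11343 genes. Among 9480 called genes compared, 450 have the opposite sign in TPM, all of them lower in the fit. Changes are given from the fit, and levels in TPM.

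A list is described below by its members called higher or lower, beside 41.3% for each direction over all tested genes. Where a list holds genes near the detection limit, some members could be tested only because FB23-2 raised them. For such lists the counts are also given for members with at least 10 counts in every DMSO library, among which 38.0% of all genes were higher and 45.0% lower.

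**Figure D2:**
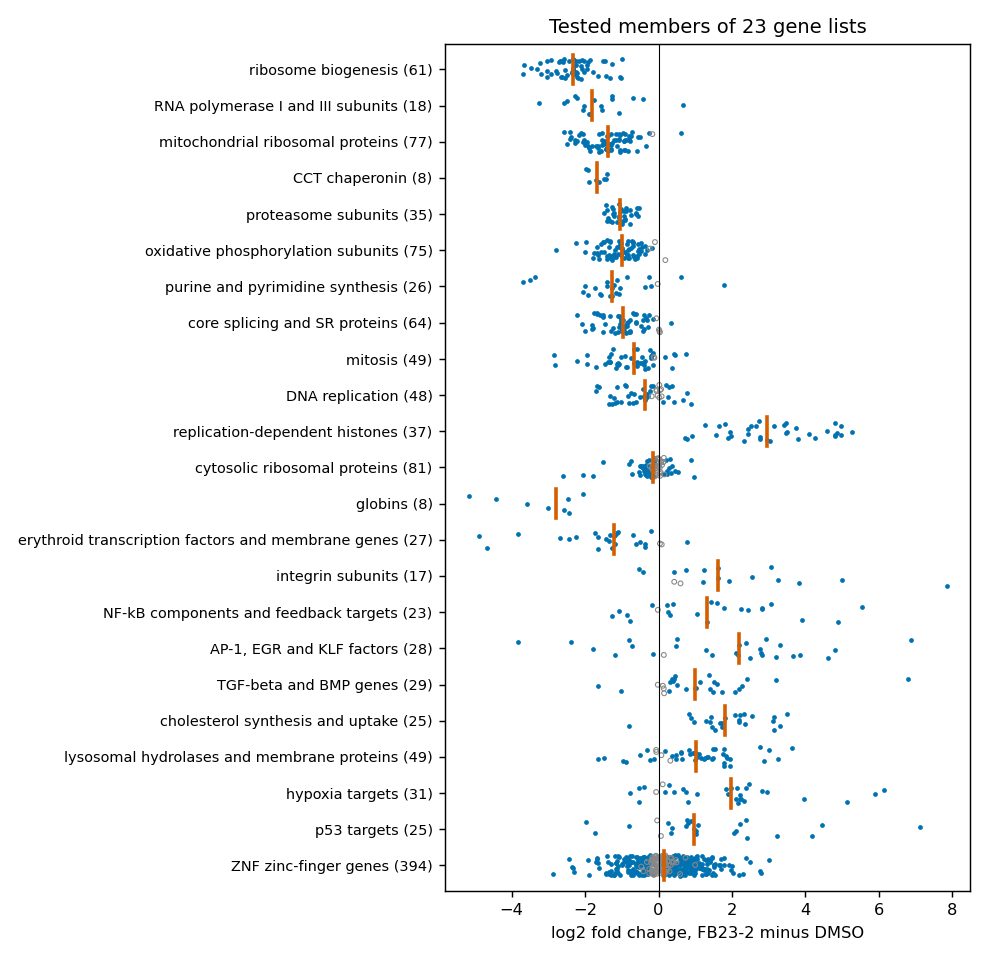
Log2 fold changes, FB23-2 minus DMSO, of the tested members of 23 lists (1 point per gene, the number tested in brackets; filled points passed the test, open points did not, and the vertical bar is the list median). Ribosome biogenesis has a median of -2.33 and replication-dependent histones one of 2.94, while the ZNF genes spread to both sides of 0.

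Promoters of 4 genes from lists whose members moved together are printed here, from 250 bases before to 50 after the RefSeq start on GRCh38.p14, 5′ to 3′ on the gene's strand. The capitals mark a short motif searched on both strands. Each gene was picked for a large change among called members whose promoter holds the motif, so the motif was a condition of the choice. MYBBP1A (nucleolar protein, chr17:4555335-4555634, minus strand) and NEU1 (lysosomal sialidase, chr6:31862772-31863071, minus strand) hold CACGTG, the E-box read by MYC-family and TFE-family factors. PLK1 (mitotic kinase, chr16:23678639-23678938, plus strand) holds TTTGAA, a core of the CHR element of cell cycle genes. MVD (mevalonate pathway enzyme, chr16:88663042-88663341, minus strand) holds CACCCCA, a core of sterol response elements, on the opposite strand, so that it reads as its reverse complement. The PLK1 window also holds CACGTG, and the NEU1 window also holds CACCCCA, both left in lower case.
MYBBP1A: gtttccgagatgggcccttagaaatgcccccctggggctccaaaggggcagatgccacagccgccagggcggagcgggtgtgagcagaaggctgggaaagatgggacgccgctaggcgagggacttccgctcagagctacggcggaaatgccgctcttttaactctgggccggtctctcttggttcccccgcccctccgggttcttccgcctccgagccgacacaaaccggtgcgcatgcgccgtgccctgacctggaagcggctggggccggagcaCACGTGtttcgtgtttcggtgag
NEU1: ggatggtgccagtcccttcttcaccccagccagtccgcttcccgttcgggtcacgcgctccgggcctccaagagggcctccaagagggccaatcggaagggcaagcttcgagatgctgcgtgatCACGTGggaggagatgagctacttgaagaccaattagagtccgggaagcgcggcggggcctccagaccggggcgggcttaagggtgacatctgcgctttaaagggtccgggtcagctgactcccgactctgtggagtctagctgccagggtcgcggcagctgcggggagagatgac
PLK1: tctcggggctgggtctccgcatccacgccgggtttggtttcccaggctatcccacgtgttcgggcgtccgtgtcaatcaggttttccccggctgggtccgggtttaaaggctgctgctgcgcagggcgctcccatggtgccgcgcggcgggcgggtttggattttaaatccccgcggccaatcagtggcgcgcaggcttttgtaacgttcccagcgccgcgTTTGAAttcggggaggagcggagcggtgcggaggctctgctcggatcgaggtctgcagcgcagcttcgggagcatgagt
MVD: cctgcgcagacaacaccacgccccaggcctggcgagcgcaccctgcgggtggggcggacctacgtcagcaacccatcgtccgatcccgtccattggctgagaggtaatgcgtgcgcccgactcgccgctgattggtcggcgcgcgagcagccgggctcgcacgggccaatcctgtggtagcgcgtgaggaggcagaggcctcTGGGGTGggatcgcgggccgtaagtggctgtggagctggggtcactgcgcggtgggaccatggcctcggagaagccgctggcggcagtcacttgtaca
CACGTG was in 21 of the 52 ribosome biogenesis promoters found in the table (61 genes tested), or 40.4%, and in 10 of 33 lysosome promoters (49 tested), or 30.3%. It was in 7.26% of all 35116 promoters and 10.2% of those of tested genes, in 15.8% of promoters of genes that fell by at least 1 on the log2 scale and in 6.79% of those that rose by as much. TTTGAA was in 29 of 42 mitosis promoters (49 tested), or 69.0%, against 15.2% of all promoters and 9.51% of tested genes. CACCCCA was in 4 of 18 cholesterol promoters (25 tested), or 22.2%, against 8.08% of all. These shares count letters in a window and do not show binding. The E-box list that fell and the one that rose share the same 6 letters.

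The machinery that builds ribosomes fell as a block. All 61 ribosome biogenesis genes were lower, 60 of them by at least 1 on the log2 scale, with a median of -2.33, and their summed level went from 13120.0 ± 117 to 4243 ± 70.6 TPM. RRS1, which recruits the 5S particle to the growing large subunit, was at 143, 139 and 147 TPM in the DMSO libraries and at 13.2, 14.3 and 12.5 TPM with FB23-2. The groups did not overlap, and RRS1 fell 12.6-fold (log2 -3.66 ± 0.08 SE). MYBBP1A, whose promoter is printed above, went from 109, 112 and 118 to 11.6, 13.1 and 11.5 TPM (log2 -3.47 ± 0.06). NPM1, the nucleolar histone chaperone, lost the most in absolute terms in this list, from a mean of 3153 to 1567 TPM, with a smaller fold change of -1.25. RNA polymerase I and III subunits, which transcribe ribosomal and transfer RNA genes, had 17 of 18 lower (median -1.82). The exception was POLR3GL, up by 0.67, while its paralog POLR3G fell by 2.58. POLR3G and POLR3GL are alternative subunits of RNA polymerase III. All 13 tested RNA polymerase II subunits were lower too, with a shallower median of -0.89.

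Proteins of the finished ribosome behaved differently according to the compartment. Of 77 mitochondrial ribosomal protein genes 75 fell and 1, MRPS6, rose (median -1.37, summed level 11532 ± 99.9 to 5138 ± 40.9 TPM). MRPL12, a large subunit protein that also binds the mitochondrial RNA polymerase, fell from 512, 481 and 505 to 111, 111 and 108 TPM. Of 81 tested cytosolic ribosomal protein genes, 42 fell, 12 rose and 27 did not pass. Their median of -0.16 turned to 0.02 with upper-quartile scaling, and their summed TPM was higher with FB23-2, at 324420.0 ± 6004 against 298440.0 ± 1967. This gain in the sum is smaller than the median of 0.25 on the log2 scale by which TPM lies above the fitted changes. RPS27 rose from 17555, 17773 and 16893 to 27876, 28000.0 and 26978 TPM, the largest gain in TPM of any called gene. RPS26 went the other way, from 1801, 1788 and 1718 to 500.5, 477 and 502 TPM, or 4.19-fold lower. RPL22L1 and RPL26L1, paralogs of RPL22 and RPL26, fell by 2.61 and 1.80. Many of these genes have processed pseudogenes, among which the counting could split reads.

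The factors that load and charge the ribosome were mostly lower. Translation initiation factors had 42 of 53 lower and 7 higher (median -0.95). EIF5A, which helps ribosomes through stalled stretches, fell from 864, 862 and 877 to 179, 173 and 165 TPM, and EIF2B3, a subunit of the exchange factor for eIF2, fell by 2.46. EIF2AK3, the PERK kinase that slows initiation under endoplasmic reticulum stress, rose by 1.36. Of 20 cytosolic aminoacyl-tRNA synthetases 18 fell, VARS most, by 2.74, and of 16 mitochondrial ones 15 fell. The other 2 and 1 did not pass. By contrast the elongation factor genes EEF1A1 and EEF2 rose, EEF2 from 3733, 3692 and 3846 to 6969, 7053 and 6499 TPM (log2 0.62 ± 0.06). EEF1A1 went from a mean of 7309 to 11097 TPM. These rises were small beside the falls above, but the genes are among the most abundant in the cells.

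MYC itself fell. It stood at 679, 687 and 681 TPM in DMSO and 230.2, 235 and 218 TPM with FB23-2, a 3.55-fold fall (log2 -1.83 ± 0.05 SE; edgeR, adjusted p = 8.21e-16). Replicates of a group lay close together, and the groups did not overlap. In the list of MYC, MAX and MXD network genes, 6 of 11 tested members were higher and 3 lower, MYC among the latter. Among 10 members with at least 10 counts in every DMSO library, 6 were higher and 3 lower. The list median was 0.27, and -0.28 with GC and length trends removed. MYCL was among the genes called higher. MXD4 and MXD1, which compete with MYC for the partner MAX and repress the same sites, rose by 1.83 and 1.61. MXI1, another repressor of that group, rose by 0.41. MLX fell by 1.15, while its partner MLXIPL, a glucose-sensing factor, rose by 3.27, from 1.44 to 16.6 TPM. MGA, an MYC antagonist, fell by 0.65.

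CCT, heat shock and proteasome genes were lower, while ubiquitin ligases and deubiquitinases went both ways. All 8 subunits of the CCT chaperonin, which folds actin and tubulin, fell by between 1.41 and 1.97. Heat shock chaperones had 18 of 21 lower (median -1.73). HSPA8, the constitutive HSP70, fell from 4035, 4144 and 3996 to 933, 970.0 and 969 TPM, and HSPD1 and HSPE1, the chaperonin pair of the mitochondrial matrix, fell by 2.35 and 2.97. All 35 tested proteasome subunit genes were lower (median -1.06), PSMB6 most, by 1.49. Their summed level went from 8633 ± 67.4 to 5207 ± 30.8 TPM. Ubiquitin E2 enzymes had 23 of 31 lower and 5 higher. TRIM ligases had 26 of 39 higher and 11 lower (median 0.38, and 0.16 with GC and length trends removed), F-box proteins 24 of 55 higher and 21 lower, and USP deubiquitinases 19 of 48 higher and 22 lower. With at least 10 counts in every DMSO library, the TRIM counts were 23 and 11 of 36. Those of F-box and USP genes were then 21 and 21 of 52, and 19 and 22 of 47. Endoplasmic reticulum chaperones were mixed, with 6 of 21 higher and 11 lower. EDEM1, which sends misfolded glycoproteins to degradation, rose by 2.00, while SDF2L1, a chaperone cofactor, fell by 1.37.

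Nuclear genes of mitochondrial respiration and protein import fell, and those of fatty acid oxidation and metabolite transport were mixed. Of 75 respiratory chain and ATP synthase subunits 72 fell and 3 did not pass (median -1.01), and their summed level went from 34168 ± 209 to 19377 ± 272 TPM. ATP5G1, which encodes the membrane ring subunit of ATP synthase, fell most, from 521, 525 and 479.8 to 76.5, 93.0 and 84.7 TPM. NDUFB10, a subunit of complex I, fell by 2.25. Import machinery had 22 of 23 lower (median -1.61), led by TOMM40, the channel of the outer membrane, at -2.83. Of 20 genes around the citric acid cycle 15 fell, PDHA1 by 1.68, but IDH1 and IDH2, which make NADPH in the cytosol and in the matrix, rose by 0.85 and 0.95. Fatty acid oxidation had 8 of 18 genes higher and 8 lower, and mitochondrial carriers 14 of 41 higher and 24 lower. Among members with at least 10 counts in every DMSO library, these counts were 7 and 8 of 17, and 13 and 24 of 39. The summed level of the carriers was 3336 ± 38.0 TPM in DMSO and 3907 ± 79.5 TPM with FB23-2. That gain is no larger than the median of 0.25 on the log2 scale by which TPM lies above the fitted changes. SLC25A1, the citrate carrier that supplies lipid synthesis, rose from a mean of 275 to 1096 TPM (log2 1.75).

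Nucleotide synthesis genes were lower, and polyamine genes went both ways. Of 26 purine and pyrimidine genes 23 fell and 2 rose (median -1.27). NME1, a nucleoside diphosphate kinase, was at 1327, 1322 and 1282 TPM in DMSO and 121, 119 and 114 TPM with FB23-2, 13.02-fold lower (log2 -3.70 ± 0.05 SE; edgeR, adjusted p = 8.56e-19). No library of either group came near the other. PFAS, in purine synthesis, and DHODH, in pyrimidine synthesis, fell by 3.51 and 3.38, whereas RRM2, the small subunit of ribonucleotide reductase, was up by 0.62. Polyamine genes had 7 of 16 higher and 8 lower, with a median of -0.15 whose sign depended on the scaling. Among 15 with at least 10 counts in every DMSO library, 6 were higher and 8 lower. ODC1 and SRM, in synthesis, fell by 2.04 and 3.34, and SAT1 and SMOX, in breakdown, rose by 3.35 and 1.95. SAT1, the acetyltransferase that marks polyamines for export and breakdown, went from 16.1, 17.9 and 16.1 to 194, 185 and 227 TPM. DOHH, which completes the hypusine of EIF5A, fell by 1.92.

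RNA processing genes followed the direction of the growth genes. Core splicing and SR proteins had 59 of 64 lower and 1, SRSF11, higher (median -0.96), and hnRNPs had 23 of 24 lower (median -0.85). DEAD-box and DEAH-box helicases had 39 of 48 lower, among them DDX21, a nucleolar helicase, by 2.54, whereas DDX58, the RIG-I sensor of viral RNA, rose by 1.51. Among 47 helicases with at least 10 counts in every DMSO library, 39 were lower and 6 higher. All 12 RNA exosome genes fell, EXOSC5 most, by 2.62. Nuclear pore and importin genes had 45 of 51 lower (median -0.70), with IPO4, an importin for histones, down by 2.93. Among kinases that phosphorylate splicing factors, SRPK1 fell by 1.37 and CLK1 rose by 1.29. Of 19 tested host genes of small nucleolar RNAs 14 fell, SNHG4 by 2.88, but GAS5, a host whose RNA is known to build up in arrested cells, rose from 855, 845 and 847 to 1976, 1825 and 1781 TPM.

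The transcripts around m6A were mostly lower. In the list of FTO, ALKBH, writer and reader genes, 24 of 28 fell and 2 rose (median -0.50, and -0.33 with upper-quartile factors), a share to be read against the 41.3% of all genes that were lower. ALKBH8, a tRNA modification enzyme, fell by 2.71, and METTL16, which methylates U6 RNA and the MAT2A transcript, by 1.89. ALKBH5, the other known m6A eraser, rose from 47.4, 48.1 and 47.3 to 77.5, 81.0 and 76.5 TPM (log2 0.47 ± 0.05). FTO was at 13.4, 14.1 and 12.8 TPM in DMSO and 12.8, 11.8 and 13.1 TPM with FB23-2, and on this scale the groups overlapped, although the fit called it lower (log2 -0.35 ± 0.06 SE; edgeR, adjusted p = 7.33e-05).

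Cell division genes were mostly lower, those of mitosis more uniformly than those of replication. Of 49 mitosis genes 42 fell and 5 rose (median -0.65, summed level 4295 ± 54.8 to 2801 ± 129 TPM). PLK1, whose promoter is printed above, was at 222, 215 and 219.8 TPM in DMSO and at 36.0, 35.9 and 35.9 TPM with FB23-2 (log2 -2.85 ± 0.05 SE), with almost no spread between replicates. CDC20, the activator of the anaphase-promoting complex, fell by 2.82, CCNB1, the mitotic cyclin, by 2.23, and KIF20A, a kinesin of cytokinesis, by 1.94. CDC25C, the phosphatase that starts mitosis, rose by 0.76. Of 48 replication genes 30 fell, 9 rose and 9 did not pass (median -0.35, and -0.18 with upper-quartile factors). ORC5, of the origin recognition complex, fell by 1.72, whereas CDT1, which loads the helicase, rose by 0.79 and MCM8 by 0.89. Of 11 tested genes whose symbols open with MCM, 9 fell and 2 rose (median -0.75). E2F1, a factor that activates S phase genes, rose 2.01-fold, from 47.0, 45.7 and 48.6 to 109, 117 and 110.0 TPM.

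CDK inhibitors and RB family genes were mixed, with 4 of 8 tested members higher, 2 lower and 2 not called (median 0.35). CDKN1A, which encodes p21 (chromosome 6, 36676463 to 36687332, GRCh38.p14), was at 1.38, 1.77 and 1.62 TPM in DMSO and 272, 265 and 257 TPM with FB23-2. Its rise of 139.7-fold (log2 7.13 ± 0.09 SE; edgeR, adjusted p = 1.92e-19) took it from a barely expressed gene to one above MYC. CDKN2D, the INK4 inhibitor p19, rose by 2.49, and RBL2, the pocket protein p130 of resting cells, by 1.02. CDKN3, a phosphatase of CDKs, fell by 0.41, and RBL1, the pocket protein p107, by 0.19. Neither call held with upper-quartile factors (edgeR, adjusted p = 0.0912 for CDKN3 and 0.846 for RBL1), and that of RBL1 was also lost without DMSO replicate 2 or 3 or FB23-2 replicate 1 or 3 (edgeR, adjusted p between 0.0553 and 0.0791). CDK4, a kinase that INK4 inhibitors restrain, fell by 1.24, and CDK6, another, from 22.5 to 8.87 TPM. Of 13 tested growth arrest genes of the BTG, TOB and GADD45 families 8 rose and 1 fell, and of 11 with at least 10 counts in every DMSO library, 7 and 1. BTG2, an antiproliferative cofactor of mRNA decay, rose from 35.1, 35.1 and 33.0 to 368, 377 and 398 TPM, and GADD45B by 3.31.

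**Figure D3:**
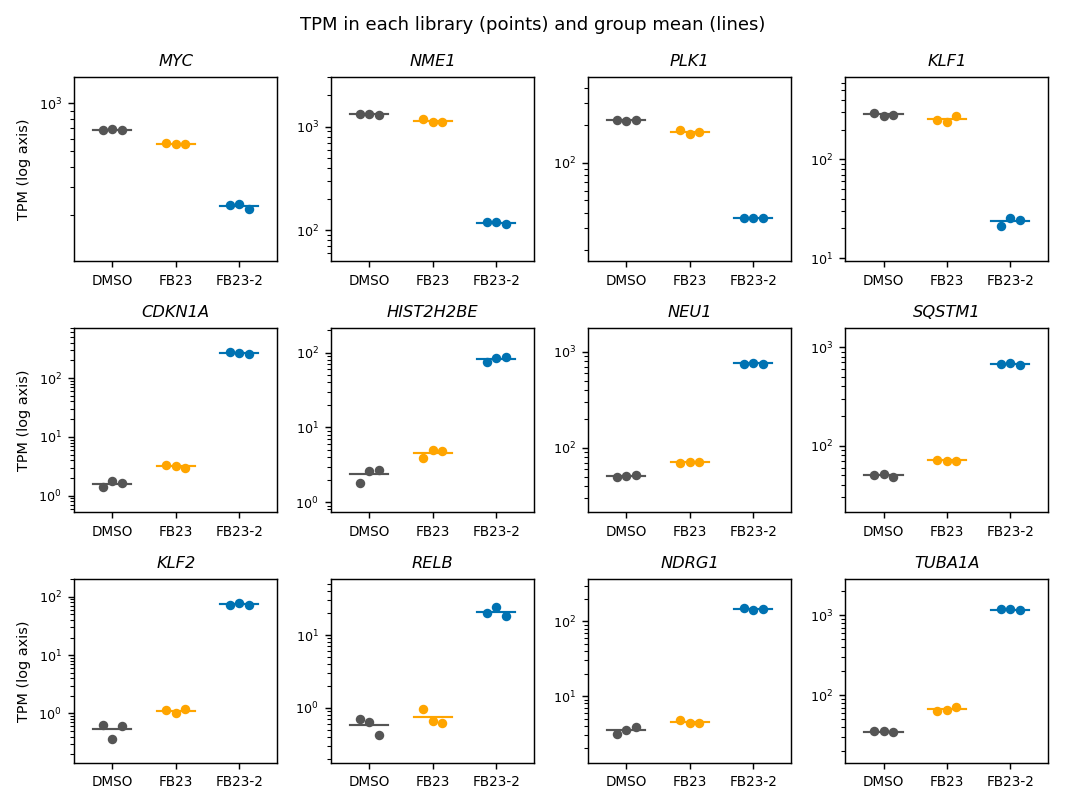
TPM in each of the 9 libraries (points) with the group mean (line), on log axes that differ between panels, for 12 genes of the lists described. MYC, NME1, PLK1 and KLF1 are lower with FB23-2 than in every DMSO library, and the other 8 are higher than in every DMSO library.

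Replication-dependent histone genes had the highest list median of those described, 2.94. Of 72 in the files 37 could be tested, and all of these were higher, 34 by at least 1 on the log2 scale. Among the 20 with at least 10 counts in every DMSO library, all 20 were higher (median 2.70). Summed over all 72, they went from 1553 ± 64.9 TPM in DMSO to 10690.0 ± 299 TPM. HIST2H2BE was at 1.80, 2.59 and 2.67 TPM and 75.6, 83.9 and 87.9 TPM, 29.4-fold higher (log2 4.88 ± 0.10 SE). HIST2H2AA3 and HIST2H2AA4 are identical copies with the same deposited values, so reads between them were shared, and their mean of 1468 TPM each holds for the pair only. These transcripts usually end in a stem loop without a poly(A) tail, and the libraries were poly(A)-selected, so the values count polyadenylated histone RNA. H2AFZ, a variant made throughout the cycle, fell by 1.30.

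Red cell genes fell together. All 8 testable globin genes of 10 were lower (median -2.79), and their summed level dropped from 27901 ± 809 to 4151 ± 287 TPM. HBG2 and HBG1, the fetal beta-like chains, fell to 1162 and 1132 TPM, and HBQ1, the theta chain, from 116, 102 and 103 to 12.2, 10.01 and 8.05 TPM. HBA1 and HBA2, and HBG1 and HBG2, are near-identical pairs between which reads can be split, so their single values are uncertain and the sum is firmer. Of 27 tested erythroid transcription factors and membrane genes 24 fell and 1 rose (median -1.21). Among 26 with at least 10 counts in every DMSO library, 23 fell and 1 rose. KLF1, the factor that activates adult globin and red cell genes, was at 298, 277 and 283 TPM in DMSO and 21.4, 25.5 and 24.6 TPM with FB23-2, 14.3-fold lower. GATA1 fell less, by 1.13 to 148, 157 and 152 TPM, LMO2, a partner in its complex, by 2.69, and TFRC, the transferrin receptor, by 1.18. The haem pathway was split, with 9 of 12 genes lower and 3 higher. UROD, in the middle of the pathway, fell by 1.63, and ALAS2, the red cell form of the entry enzyme, by 1.04, while ALAS1, the general form, rose by 1.32. SLC38A5, a glutamine transporter of red cell precursors, fell from 159.7, 166 and 167 to 8.16, 8.24 and 6.95 TPM.

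Genes of other blood lineages rose from low levels and not as whole programmes. In the list of monocyte, macrophage and dendritic cell genes only 14 of 36 could be tested, with 11 higher and 3 lower. Of the 7 with at least 10 counts in every DMSO library, 5 were higher and 2 lower. ITGAX, the integrin CD11c, was at 0.02, 0.07 and 0.11 TPM in DMSO and 18.8, 18.2 and 19.3 TPM with FB23-2. CD68, a lysosomal protein of macrophages, rose from 5.06 to 33.5 TPM, and CD83, a marker of mature dendritic cells, from 1.21 to 8.51 TPM, while ITGAM, the integrin CD11b, fell by 0.54. Of 10 testable megakaryocyte genes 7 rose and 2 fell. Of 8 with at least 10 counts in every DMSO library, 5 rose and 2 fell. GP6, the platelet collagen receptor, rose to 9.44 TPM, and GP1BB, by far the most abundant of the list in DMSO, fell from 402 to 301 TPM. LIN28B, a fetal RNA-binding protein, fell from 43.0, 44.8 and 43.9 to 4.35, 4.36 and 5.16 TPM. HOX genes had 14 of 22 tested members lower and 2 higher (median -0.55), with HOXD13 at -2.89 and HOXB3 at 0.79. Among 20 HOX genes with at least 10 counts in every DMSO library, 13 were lower and 2 higher.

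Integrin and semaphorin genes were more often higher than lower, and antigen presentation and cadherin genes were mixed. Of 17 tested integrin subunits 13 rose and 2 fell, and of 10 with at least 10 counts in every DMSO library, 8 and 2. ITGA3, a laminin receptor chain, rose by 4.99 and ITGA7, another, by 3.25. In the class I presentation list 6 of 10 tested members rose and 3 fell (5 and 3 of 9 with at least 10 counts in every DMSO library). HLA-E, a ligand of NK cell receptors, rose by 2.13, HLA-C by 1.44, and B2M, the shared light chain, from 937 to 2118 TPM. CALR and PDIA3, which help load the peptide, fell by 0.59 and 0.29. HLA genes are polymorphic and share sequence, so their reads can be split among them. In the class II list the only testable gene, HLA-DOB, fell by 1.32, and the list summed to 3.39 ± 0.667 TPM in DMSO and 1.73 ± 0.329 TPM with FB23-2. Cadherins and protocadherins had 4 of 10 tested members higher and 5 lower (2 and 4 of 6 with at least 10 counts in every DMSO library). Semaphorins, plexins and ephrins had 26 of 38 higher and 6 lower, or 17 and 6 of 27 with at least 10 counts in every DMSO library. SEMA6C, a guidance protein, rose from 0.827 to 10.1 TPM.

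Immediate-early and inflammatory regulators rose widely, though seldom to high levels. AP-1, EGR and KLF factors had 20 of 28 higher and 7 lower (median 2.18), and 16 and 7 of the 24 with at least 10 counts in every DMSO library. KLF2, a factor of quiescence in lymphocytes and vessels (chromosome 19, 16324826 to 16328685, GRCh38.p14), was at 0.62, 0.37 and 0.61 TPM in DMSO and 72.7, 77.6 and 73.5 TPM with FB23-2. FOS, a component of AP-1, was at 7.93, 4.61 and 3.97 and 95.6, 98.2 and 92.0 TPM. The groups were far apart for both genes, although FOS varied more among the DMSO libraries. FOSL1, another AP-1 member, fell by 1.78, and KLF15 by 2.38.

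NF-kB components and feedback targets had 17 of 23 higher and 5 lower (median 1.32), and 16 and 5 of the 22 with at least 10 counts in every DMSO library. RELB, a subunit of the alternative pathway, rose from 0.71, 0.63 and 0.43 to 20.4, 24.1 and 18.5 TPM, BIRC3, an inhibitor of apoptosis, by 3.92 and BCL3, a coactivator, by 3.06. CHUK, a kinase of the pathway, fell by 1.27. TNF ligands and receptors had 13 of 17 tested members higher and 4 lower (7 and 4 of 11 with at least 10 counts in every DMSO library). TNFRSF9 (CD137) stood at 0, 0.09 and 0.06 TPM in DMSO and 8.57, 7.90 and 8 TPM with FB23-2, while TNFRSF8 (CD30) went from 32.4, 31.9 and 33.4 to 1.05, 0.85 and 1.09 TPM. Both are receptors of activated lymphocytes. Of 30 tested cytokine and chemokine receptors 21 rose and 5 fell, and of 24 with at least 10 counts in every DMSO library, 15 and 5. IL6R, the interleukin 6 receptor, rose by 3.11. Only 12 of 79 chemokine and interleukin genes could be tested, and their sum over all members stayed low, at 10.2 ± 0.768 and 44.2 ± 3.76 TPM.

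Genes of TGF-beta, MAP kinase and STAT signalling were more often higher than lower. TGF-beta and BMP genes had 23 of 29 higher and 2 lower (median 0.98, and 0.44 with GC and length trends removed), and 21 and 2 of the 27 with at least 10 counts in every DMSO library. ID3 and ID2, inhibitors of basic helix-loop-helix factors, rose by 3.21 and 2.42, and GDF15, a secreted member of the family, reached 4735 TPM. Among MAP kinase feedback genes 15 of 25 rose and 8 fell (14 and 8 of 24 with at least 10 counts in every DMSO library). DUSP5, a nuclear ERK phosphatase, rose by 4.83, while DUSP9 and DUSP7, cytoplasmic ones, fell by 2.19 and 1.58. The STAT and SOCS axis had 14 of 20 tested members higher and 5 lower (median 0.49, and 0.14 with GC and length trends removed), and 13 and 5 of the 19 with at least 10 counts in every DMSO library. STAT5A, which carries cytokine signals in red cell precursors, fell from 150.1, 154 and 157 to 33.1, 35.0 and 35.5 TPM, while PIM1 and SOCS1, 2 of its known targets, rose by 1.48 and 1.73. Interferon-stimulated genes had 17 of 25 higher and 6 lower (14 and 6 of 22 with at least 10 counts in every DMSO library), but their summed level was 1293 ± 35.3 TPM in DMSO and 1219 ± 20.1 TPM with FB23-2. GBP2, a guanylate-binding protein, rose by 4.86 and IFI6, a mitochondrial protein, by 3.55, whereas IFITM1, an antiviral membrane protein and the more abundant gene, fell from 470.3, 482 and 512 to 206, 206 and 184 TPM.

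Sterol genes rose, as did most genes of lysosomal hydrolases and membrane proteins. Of 25 cholesterol genes 24 were higher and only PMVK, a kinase of the mevalonate pathway, was lower (median 1.80), and the summed level rose from 1865 ± 14.03 to 8618 ± 103 TPM. MVD, whose promoter is printed above, was at 56.6, 55.3 and 58.0 TPM in DMSO and 780.2, 774 and 742 TPM with FB23-2, and INSIG1, the sterol sensor partner, rose by 3.14. In fatty acid synthesis 10 of 16 rose and 4 fell. ACLY, which makes cytosolic acetyl-CoA, rose by 1.55 and ELOVL6, an elongase, fell by 0.52. Of 49 tested genes of lysosomal hydrolases and membrane proteins (51 in the files) 37 rose and 8 fell (median 1.01). Their summed level was 1979.9 ± 22.0 TPM in DMSO and 4699.5 ± 14.4 TPM with FB23-2. NEU1 was at 49.5, 51.2 and 52.5 TPM in DMSO and 752, 767 and 745 TPM with FB23-2, 12.5-fold higher (log2 3.64 ± 0.05 SE; edgeR, adjusted p = 8.56e-19). All FB23-2 libraries lay far above all DMSO libraries. NPC2, which hands cholesterol out of the lysosome, rose by 3.27, while CLN3, a membrane protein whose loss causes a storage disease, fell by 1.66 and LAMP1, the main membrane glycoprotein, by 0.96. V-ATPase subunits, which form a proton pump of lysosomes, had 3 of 18 tested members higher and 9 lower (median -0.15). Among 17 with at least 10 counts in every DMSO library, 3 were higher and 9 lower.

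Autophagy genes had 21 of 34 higher and 8 lower (median 0.43, and 0.23 with GC and length trends removed). SQSTM1, the receptor p62, was at 50.7, 52.0 and 48.7 TPM in DMSO and 678, 685 and 661 TPM with FB23-2 (chromosome 5, 179806393 to 179838078, GRCh38.p14), and OPTN, another receptor, rose by 4.37. ATG3, which attaches LC3 to membranes, fell by 1.84. The syntaxins, VAMPs and SNAPs, which fuse vesicles, had 14 of 23 tested members higher and 2 lower, and tetraspanins 14 of 20 higher and 3 lower. Among members with at least 10 counts in every DMSO library these counts were 14 and 2 of 23, and 14 and 2 of 19.

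Hypoxia targets, p53 targets and BCL2 family genes were more often higher than lower. Of 31 tested hypoxia targets 25 rose and 4 fell (median 1.96), and of 28 with at least 10 counts in every DMSO library, 22 and 4. NDRG1, a stress protein of arrested cells, was at 3.12, 3.49 and 3.82 TPM in DMSO and 152, 143 and 145 TPM with FB23-2, and LOXL2, a collagen cross-linking enzyme, at 0.35, 0.5 and 0.24 and 30.8, 31.3 and 30.4 TPM. ANGPTL4, a secreted inhibitor of lipoprotein lipase, rose from 2.48 to 22.9 TPM, while EGLN2 and EGLN3, 2 of the oxygen sensors, fell by 0.77 and 0.52. Glycolysis genes went both ways, 13 of 25 higher and 7 lower (median 0.30, and between 0.12 without DMSO replicate 3 and 0.63 with no filter). ALDOC, the brain aldolase, rose by 3.82 and ENO2, the neuronal enolase, by 3.28, and HK1 and LDHB fell by 1.39 and 1.42. Of 25 p53 targets 20 rose and 3 fell (median 0.96), CDKN1A among the former, and of 25 with at least 10 counts in every DMSO library, 20 and 3. TP53INP1, a stress-induced regulator of autophagy and death, rose by 4.46, and AEN, an apoptotic nuclease, fell by 1.73. In the BCL2 family 13 of 17 tested genes rose and 2 fell (13 and 2 of 17 with at least 10 counts in every DMSO library). The death-promoting members BMF and BBC3 rose by 3.82 and 2.22 and BNIP3L, a mitophagy receptor, by 2.46, while BID and BAK1, also death-promoting, fell by 1.33 and 0.53.

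Cytoskeleton and matrix genes changed in composition. Tubulins had 7 of 16 higher and 6 lower, with a median of -0.01 whose sign depended on the scaling. TUBA1A, an isotype of neurons, was at 36.2, 35.4 and 34.4 TPM in DMSO and 1181, 1183 and 1156 TPM with FB23-2, TUBB2B rose from 11.6 to 309.6 TPM, and TUBA1C fell from 873, 867 and 876 to 472, 466 and 438 TPM. Tubulin isotypes are alike in sequence, so reads can be split among them. Actin regulators had 21 of 39 higher and 13 lower (median 0.32, and 0.49 with upper-quartile factors). TMSB10, a thymosin that binds actin monomers, rose from 771, 715 and 749.8 to 6182, 6482 and 6316 TPM, and GSN, the severing protein gelsolin, by 4.42, while ARPC4, of the Arp2/3 complex, fell by 1.05. VIM, the intermediate filament vimentin, rose from 1026, 1018 and 1067 to 3998, 4131 and 3744 TPM. Of 14 tested keratin and junction genes 10 rose and 3 fell (7 and 3 of 11 with at least 10 counts in every DMSO library), KRT8 from 227 to 1372 TPM, whereas EPCAM, an adhesion molecule, fell from 73.5 to 25.5 TPM. Matrix proteases and inhibitors had 18 of 24 tested members higher and 2 lower (14 and 2 of 20 with at least 10 counts in every DMSO library), and TIMP2, an inhibitor, rose by 4.55. Collagens, laminins and fibroblast genes had 13 of 21 higher and 4 lower (12 and 3 of 18), with COL6A2 at 4.85 and COL15A1 at -2.04.

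Large families and the transporters are given by their counts. SLC solute carriers had 103 of 222 tested genes higher and 99 lower, near the shares of all genes. Their median of 0.03 turned to -0.035 with a filter at 1 CPM and to -0.15 with GC and length trends removed. Of the 201 SLC genes with at least 10 counts in every DMSO library, 84 were higher and 99 lower (median -0.16). Amino acid transporters had 16 of 26 lower and 10 higher (median -0.72, and -0.40 with no filter), or 16 and 9 of the 25 with such counts. Calcium channels and pumps had 25 of 32 higher and 4 lower (21 and 3 of 27 with at least 10 counts in every DMSO library). Their median was 1.25, and 0.70 with GC and length trends removed. ZNF genes had 174 of 394 higher, 121 lower and 99 not called (median 0.15, between 0.075 with GC and length trends removed and 0.32 with upper-quartile factors). Of the 374 ZNF genes with at least 10 counts in every DMSO library, 162 were higher and 120 lower. LINC noncoding RNAs had 79 of 133 tested members higher and 22 lower, but only 133 of 907 could be tested, and of 101 with at least 10 counts in every DMSO library the counts were 51 and 22. The strand setting of the counting is not given in the sources used here, so reads of antisense genes cannot be told apart from those of their partners.

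The same members were then set beside FB23, which shares the DMSO libraries, so the 2 sets of values are not independent. With FB23 3144 genes were called (23.5%), 1647 higher (12.3%) and 1497 lower (11.2%), and the median absolute log2 fold change was 0.14 against 0.73 with FB23-2. The direct comparison of FB23-2 with FB23 called 10890 genes (81.5%), 5395 higher (40.4%) and 5495 lower (41.1%). No dose is given for either compound, so only the time of treatment is matched. For globins the list median was 0.12 with FB23 and -2.79 with FB23-2, and all 8 tested globins were lower with FB23-2 than with FB23. KLF1 was at 256 ± 19.6 TPM (SD, n = 3) with FB23, and its log2 difference between the compounds was -3.67 ± 0.08 SE (edgeR, adjusted p = 1.09e-16). Ribosome biogenesis had 47 of 61 genes lower with FB23 (median -0.23), and all 61 were lower again with FB23-2 than with FB23. Proteasome subunits had a median of -0.03 with FB23, and all 35 tested were lower with FB23-2 than with FB23.

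Replication-dependent histones had 22 of 37 tested genes higher with FB23 (median 1.04) and 35 higher with FB23-2 than with FB23, with 1 lower. The medians with FB23 were 0.23 for cholesterol genes, 0.15 for lysosomal genes, 0.03 for hypoxia targets and -0.04 for NF-kB genes, against 1.80, 1.01, 1.96 and 1.32 with FB23-2. CDKN1A was at 3.20 ± 0.208 TPM (SD, n = 3) with FB23, and its log2 difference between the compounds was 6.16 ± 0.07 (edgeR, adjusted p = 1.64e-19). RELB was not called with FB23 (log2 0.20 ± 0.30), and was higher with FB23-2 than with FB23 by 4.69. FTL, the ferritin light chain, is a gene where the compounds were close: it rose by 0.67 ± 0.05 with FB23 and by 0.80 ± 0.05 with FB23-2, a difference of 0.13 ± 0.05 (edgeR, adjusted p = 0.0276).

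**Figure D4:**
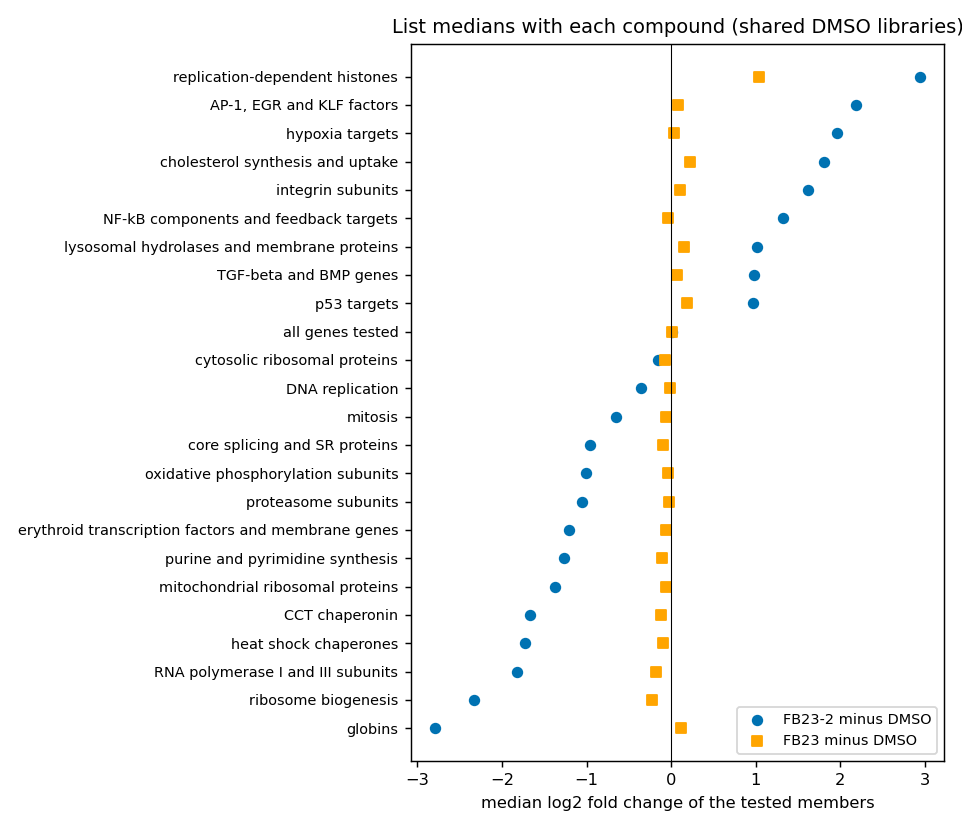
Median log2 fold change of the tested members of 23 lists and of all tested genes, for FB23-2 minus DMSO (circles) and FB23 minus DMSO (squares); both use the same 3 DMSO libraries. Squares stay between -0.23 and 1.04, while circles run from -2.79 to 2.94.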

How the data were processed

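Poly(A) RNA was extracted with TRIzol and made into directional libraries, per the labels' protocols. RSEM 1.2.31 and the build GRCh38 appear in the submitters' processing notes. Expected counts, estimated by RSEM per the file headers, were the input of all tests. TPM, deposited by the authors with a scaling for length and total, gave levels. FPKM, also deposited by the authors per the file headers, was not used, and lengths in bases came from the deposited tables. No source used here gives the aligner, annotation, strand setting or filters.

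After rounding, counts went into the quasi-likelihood test of edgeR 4.0.16 (R 4.3.3). Genes were kept by filterByExpr (minimum count 10, total 15), scaled by TMM and fitted over all 9 libraries with 1 mean per group and no replicate block. P-values were adjusted by Benjamini-Hochberg over all 13365 tested genes. The common biological coefficient of variation was 5.12%. The steps were tested on simulated data in which a small share of genes changed, in either direction. That setting does not test the scaling where most genes change, as they did here.

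The comparison and the gene lists were chosen with earlier results of these data known. Named genes are FTO, MYC and CDKN1A, the called genes that gained or lost most mean TPM (10 each way), and per list up to 3 called members at each end, given a mean log2 CPM of 1 or more, or any member of lists of 12 or fewer. Of these the text describes some. Gene positions and promoters come from RefSeq tables for GRCh38.p14. Alternatives were other scalings (DESeq2 1.42.0 size factors, upper quartile, library totals), filters (none, or 1 CPM in at least 3 libraries), tests (DESeq2 Wald, limma-voom with limma 3.58.1), the 6 libraries only, the replicate number as a block and leaving out each library. A fit with trends in GC content and length removed was added after seeing the data.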

Additional observations from a re-analysis of the deposited data

How the results depend on the processing

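Of the 187 tested genes named with their values, 1 had no GC value. Otherwise all kept their direction in the 19 alternatives, and all but CDKN3 and RBL1 stayed called. CDKN3 was not called with library totals, upper-quartile factors or the trends removed, and RBL1 in 8 alternatives. Called genes numbered 10640 to 11648 over the alternatives with all 9 libraries or the 6 compared, and 10740 to 11293 when each library was left out. Between 89.95% (GC content and length trends removed, chosen after seeing the data) and 99.75% (the 6 libraries only) of the called genes that were tested again kept their call and direction. Upper-quartile factors raised the median of all genes by 0.17 on the log2 scale and gave 6451 higher and 4642 lower calls. Library totals raised it by 0.15 (6294 and 4754), and removing the trends lowered it by 0.11 (4749 and 5891).

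Medians close to 0 changed sign. That of cytosolic ribosomal proteins became 0.016 with upper-quartile factors, that of fatty acid oxidation 0.023, that of polyamine genes 0.018 and that of V-ATPase subunits 0.018. That of USP genes became 0.12 with these factors and 0.092 with library totals, that of F-box genes -0.0059 with the trends removed, and that of CDK inhibitors -0.019 with no filter. That of SLC carriers became -0.035 with the filter at 1 CPM and -0.15 with the trends removed. The tubulin median became 0.022 with that filter, 0.012 with DESeq2's size factors, 0.010 with its Wald test, 0.14 with library totals and 0.17 with upper-quartile factors. It lay between -0.048 and 0.048 when each library was left out. The cadherin median of -0.38 became 1.22 with the filter at 1 CPM, 0.0 with no filter and 0.45 with the 6 libraries only, and lay between -0.61 and 0.076 when each library was left out. That of the MYC, MAX and MXD network became -0.28 with the trends removed. The medians of the other 69 lists described kept their sign. With the trends removed, medians of the TGF-beta, calcium, autophagy and MAP kinase lists became 0.44, 0.70, 0.23 and 0.47. The cause of these changes was not tested.

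With the replicate number as a block, 10883 genes were called, and 98.4% of the calls were kept. Deviations of same-numbered DMSO and FB23-2 libraries from their group means correlated at r = 0.09, 0.03 and 0.03. Means for libraries with other numbers were -0.04, -0.02 and -0.02. Correlations this small cannot show whether same-numbered libraries shared a culture, day or batch. Depth limits what can be said of genes near 10 counts per library: of 26830 genes 13365 were tested.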

Other observations

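Some groups not described above moved in part. Of 16 tested annexin and S100 genes 10 rose and 2 fell (8 and 2 of 13 with at least 10 counts in every DMSO library). S100A10, the partner of annexin A2, went from 7.62, 6.60 and 6.55 TPM in DMSO to 127, 131 and 125 TPM with FB23-2, and the groups were far apart. Of the arrestin-domain genes, TXNIP, which limits glucose uptake, rose by 1.46 and ARRDC4 by 2.09, while ARRDC2 fell by 1.22. Serine and one-carbon genes had 12 of 16 lower and 4 higher, with MTHFD1, a folate enzyme, down by 2.17. Among 15 of these genes with at least 10 counts in every DMSO library, 12 were lower and 3 higher. Zinc transporters and metallothioneins had 14 of 22 tested members lower and 6 higher (median -0.48, and -0.31 with upper-quartile factors). Among 21 with at least 10 counts in every DMSO library, 14 were lower and 6 higher. SLC39A3 fell from 314 to 82.8 TPM and MT2A rose from 27.8 to 144 TPM. MYL4, an embryonic and atrial myosin light chain, fell from 116 to 17.3 TPM. HEXIM1, the inhibitor of the elongation kinase P-TEFb, rose by 1.22. Chromatin remodellers of the SWI/SNF, CHD and INO80 groups had 26 of 33 lower and 5 higher (median -0.50, and -0.33 with upper-quartile factors). Among 32 with at least 10 counts in every DMSO library, 26 were lower and 4 higher.

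All tested genes were also grouped by the letters that open their symbols, which gave 146 families of at least 10 genes. The families named here were chosen after their values were seen, with no test. Over all tested genes 41.3% were higher and 41.3% lower. The family counts were not repeated for genes with at least 10 counts in every DMSO library. Some members may thus have been testable only because FB23-2 raised them. The 14 TIMM genes, of import into mitochondria, had 13 lower (median -1.67), the 16 TRMT genes, of tRNA methylation, had 13 lower (median -1.17), and all 11 LSM genes, of RNA processing and decay, were lower (median -1.05). Of 19 CYP genes, the cytochromes P450, 14 were higher and 2 lower (median 1.16), and of 12 DENND genes, which activate RAB proteins, 9 were higher and 1 lower (median 0.80).

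In all, 44 genes were below 0.1 TPM in every DMSO library and at 1 TPM or above in every FB23-2 library, and 2 genes showed the reverse.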
